A study of Mus musculus with 4 samples.

Results

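Claudins are small membrane proteins with 4 membrane-spanning stretches that form the strands of the tight junction, the seal that runs around each cell of an epithelium. Some claudins make the seal tight, and others leave pores for particular ions, so the set of claudins in a layer decides what passes between its cells. In the cochlea the stria vascularis (SV), the epithelium of the lateral wall that generates the endocochlear potential, holds a pair of tight junction barriers. Marginal cells face the endolymph, basal cells close the SV off from the spiral ligament, and pigment-bearing intermediate cells lie between the layers without a barrier of their own. Spindle and root cells lie at the borders of the SV and in the adjoining lateral wall.

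The genes described are 10 claudins, Cldn3, Cldn4, Cldn6, Cldn7, Cldn8, Cldn9, Cldn10, Cldn11, Cldn12 and Cldn14, chosen by symbol from the 23 claudin genes that the gene lists of all libraries hold. SV was taken from CBA/J mice at postnatal day 30 (P30), with no treatment and no altered gene, and several mice were pooled for each capture. Droplet libraries were made from whole cells in 3 captures and from nuclei in 1 capture, and no source used here gives the sex of the mice. The captures of whole cells held 2811309, 8113494 and 8340882 unique molecular identifiers (UMIs, each standing for 1 RNA molecule tagged at its 3′ end), and the nucleus capture held 22332501. After removal of thin barcodes and doublets 377, 1314 and 1461 cells and 9723 nuclei were kept, with median UMI counts of 5050, 4880.5, 3872 and 1497. Mitochondrial genes gave a median of 38.6%, 42.5% and 45.4% of the UMIs of a barcode in captures 1, 2 and 3 and 8.23% in nuclei. Capture 2 shared 2 cell barcodes with capture 1 and 6 with capture 3, and the nucleus capture shared 7, 26 and 32 with captures 1, 2 and 3.

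Cells and nuclei were grouped without the use of any claudin or other tight junction gene, and the groups were named from other markers. This gave 137 marginal cells (19, 73 and 45 in captures 1, 2 and 3), 976 intermediate cells (133, 439 and 404), 95 cells of the basal layer (21, 49 and 25) and 17 spindle/root cells (2, 9 and 6). In nuclei there were 2536 marginal, 1471 intermediate, 659 basal and 202 spindle/root nuclei. A further 1738 cells and 3974 nuclei had no name that met the naming rule. Levels are given as CPM (UMIs of the gene per 1000000 UMIs of the cell group), per capture and, for a mean, with the SD over captures. The 3′ tags count molecules and are not scaled by transcript length.

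Among the 4 types the summed markers of each were highest in the group they named, with signal of one layer present in others. The summed level of the 12 marginal markers in basal cells was 16.4% of that in marginal cells (single markers 1.90% to 29.5%, none at 0). The summed level of the 12 intermediate markers was 30.2% of its own level in marginal cells and 40.5% in basal cells. Of the 12 markers, 2 were at 0 in marginal and 2 in basal cells, and 1 was at 0 in intermediate cells. The 9 basal markers together reached 6.23% of their own level in marginal cells (0 to 22.9%, 2 at 0), and in spindle/root cells 22.7% (0 to 60.1%, 6 at 0). The spindle/root markers together reached 5.59% of their own level in marginal and 2.05% in basal cells, although single markers reached 705% and 252%. In nuclei the marginal markers reached 30.6% of their own level in basal nuclei, with none at 0.

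The members lie on 6 chromosomes (mm10 coordinates, GENCODE M21 annotation). Cldn3 (chr5:134986214-134987472, plus strand) and Cldn4 (chr5:134945119-134946934, minus strand) are single-exon genes 39279 bases apart. Cldn6 (chr17:23679249-23682446, plus strand) and the single-exon Cldn9 (chr17:23682584-23684026, minus strand) stand tail to tail with 137 bases between their 3′ ends. Cldn11 (chr3:31149920-31164324, plus strand) has 3 exons. Cldn7 is at chr11:69964779-69967885 on the plus strand, Cldn8 at chr16:88560828-88563183 on the minus strand and Cldn14 at chr16:93919031-94008837 on the minus strand. Cldn10 spans chr14:118787908-118875489 on the plus strand, and Cldn12 spans chr5:5489537-5514958 on the minus strand. Cldn3 overlaps Wbscr25 on the opposite strand, and Cldn14 overlaps Gm49618 on its own strand, so that reads in the second overlap could belong to either gene, while counting by strand keeps the first apart. The longest stretch that transcripts of a member share with those of any other claudin is 37 bases, between Cldn6 and Cldn9. It is followed by 35 bases between Cldn3 and Cldn4.

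Promoters are shown because Cldn3, Cldn7, Cldn8 and Cldn9 were high in marginal and spindle/root cells, and Cldn11 in basal cells. Not all members follow this split. Cldn12 had overlapping values in the layers, Cldn10 had few UMIs, and Cldn14 was high in spindle/root cells only. The RefSeq promoter windows (GRCm38.p6, from 250 bases before to 50 bases after a start) held 14 windows of 8 of the 10 members. Cldn8 had no window, and neither did Cldn9, the leading member in marginal and spindle/root cells. The letters CAGGTG, an E-box read by zinc finger repressors of epithelial genes, were searched on both strands and are in capitals (as CACCTG where they lie on the opposite strand). They occur in 5 of the 14 member windows, of Cldn3, Cldn4, Cldn6, Cldn7 and Cldn14, and in 20.2% of all 32851 promoter windows. The Cldn11 window does not hold these letters, and neither does the other Cldn7 window (chr11:69964529-69964828), which is not shown. Whether the letters follow the split was not tested, and Cldn9 could not be searched. The windows, 5′ to 3′ on the gene's strand, are chr5:134985964-134986263 (plus) for Cldn3, chr5:134946885-134947184 (minus) for Cldn4, chr17:23679115-23679414 (plus) for Cldn6, chr11:69965171-69965470 (plus) for Cldn7 and chr3:31149670-31149969 (plus) for Cldn11.
Cldn3: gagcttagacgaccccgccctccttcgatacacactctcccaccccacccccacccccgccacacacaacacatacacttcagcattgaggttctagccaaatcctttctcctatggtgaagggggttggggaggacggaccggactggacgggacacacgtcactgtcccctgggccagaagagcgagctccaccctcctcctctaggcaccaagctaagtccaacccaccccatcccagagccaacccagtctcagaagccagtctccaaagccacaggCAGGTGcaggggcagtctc
Cldn4: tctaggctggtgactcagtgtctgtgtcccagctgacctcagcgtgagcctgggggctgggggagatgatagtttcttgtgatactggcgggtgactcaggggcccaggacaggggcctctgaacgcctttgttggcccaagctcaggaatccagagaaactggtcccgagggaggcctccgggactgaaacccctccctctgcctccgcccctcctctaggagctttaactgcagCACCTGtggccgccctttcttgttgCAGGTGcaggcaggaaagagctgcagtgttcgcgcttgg
Cldn6: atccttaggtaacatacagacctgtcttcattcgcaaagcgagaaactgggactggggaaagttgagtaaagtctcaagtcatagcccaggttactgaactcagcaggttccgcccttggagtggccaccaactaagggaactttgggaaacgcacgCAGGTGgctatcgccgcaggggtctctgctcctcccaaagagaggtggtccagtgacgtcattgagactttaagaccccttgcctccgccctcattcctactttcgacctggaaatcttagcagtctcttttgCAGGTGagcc
Cldn7: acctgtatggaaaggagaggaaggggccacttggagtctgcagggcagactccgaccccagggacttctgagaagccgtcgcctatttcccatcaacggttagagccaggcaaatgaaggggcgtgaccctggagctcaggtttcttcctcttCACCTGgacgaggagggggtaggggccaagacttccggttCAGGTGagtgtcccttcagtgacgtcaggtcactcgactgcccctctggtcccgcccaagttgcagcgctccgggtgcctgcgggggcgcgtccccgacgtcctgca
Cldn11: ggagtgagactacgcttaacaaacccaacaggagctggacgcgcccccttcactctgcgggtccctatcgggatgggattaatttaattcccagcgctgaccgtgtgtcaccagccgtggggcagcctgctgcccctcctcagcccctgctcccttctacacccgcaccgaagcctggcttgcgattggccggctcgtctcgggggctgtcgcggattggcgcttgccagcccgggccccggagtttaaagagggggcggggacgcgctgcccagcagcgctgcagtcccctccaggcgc
The E-box lies at 31 bases after the start in Cldn3, at 14 bases before and 11 after in Cldn4, at 93 before and 40 after in Cldn6, and at 97 and 57 before in Cldn7. The Cldn11 window is 66.3% G or C with 24 CpG pairs, against medians of 52.7% and 7 over all windows. The others shown are 60.7% with 9 (Cldn3), 61% with 9 (Cldn4), 52.3% with 10 (Cldn6) and 62.3% with 17 (Cldn7). Of the windows not shown, those of Cldn10 and Cldn12 reach 72% with 27 and 66.3% with 26. The grainyhead-type letters AACNNGTT, searched on both strands, were in none of the 14 windows and in 4.20% of all windows. The SOX-type letters ACAAAG, searched likewise, were in 2 of the 14, of Cldn4 and Cldn10, and in 18.7% of all.

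The cell types differed in their leading claudin. Cldn9 led in marginal cells and in the cells named spindle/root, Cldn11 led in basal cells, and intermediate cells had little of any member. In the Anxa1-high cells and nuclei described below, Cldn11 stood above Cldn9, with overlapping intervals. For the comparisons UMIs were summed per capture and cell group, and edgeR's quasi-likelihood test set each type against the other 3, averaged, with Benjamini-Hochberg adjustment over all 7243 genes tested and calls at an adjusted p under 0.05. Of the 10 members 7 passed the filter on low counts, and Cldn6, Cldn10 and Cldn12 did not. The filter admits a gene through the sums where it is highest, so that counts of members called depend in part on which were admitted. Spindle/root cells entered from captures 2 and 3, since capture 1 held 2 such cells.

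**Figure D1:**
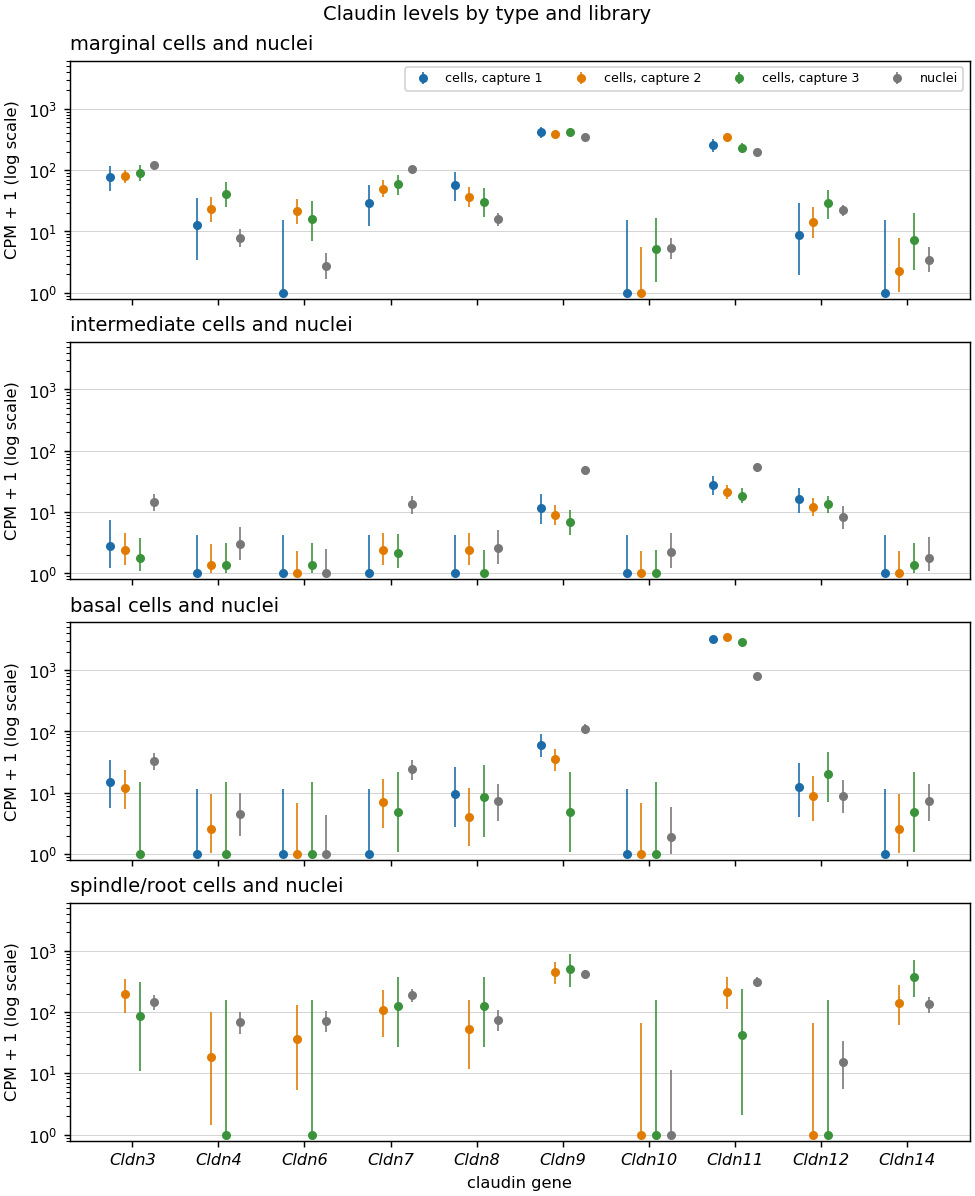
Level of each member claudin (CPM, log axis) in the 4 SV cell types, with a point for each whole cell capture and one for the nucleus capture. Cldn11 stands at 2858 to 3485 CPM in basal cells of the cell captures, and Cldn9 at 390 to 425 CPM in their marginal cells.

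Cldn9, a claudin whose loss causes deafness in mice, was at 411, 390 and 425 CPM in marginal cells of captures 1, 2 and 3 (409 ± 17.6, SD, n = 3). In basal cells it was at 59.6, 33.9 and 3.80 CPM and in intermediate cells at 10.7, 8.13 and 5.87. The marginal values lay above every basal and intermediate value, and the basal values spread from 3.80 to 59.6. In the 15 spindle/root cells of captures 2 and 3 Cldn9 stood at 442 and 504 CPM (473 ± 43.8, n = 2). The log2 fold change of marginal cells against the mean of the others was 2.97 ± 0.15 (SE), with an adjusted p of 1.6e-87 by edgeR. Between marginal and spindle/root cells the difference was 0.12 ± 0.28 on the log2 scale (adjusted p = 0.81, edgeR), so these neighbours in the order of levels did not differ beyond their spread. Basal cells exceeded intermediate cells by 1.87 ± 0.33 on the log2 scale (adjusted p = 1.9e-07, edgeR). In capture 3 the order was opposite, at 3.80 CPM from 1 UMI in basal and 5.87 CPM in intermediate cells. The 44 basal UMIs lay in 16 of 95 cells, all in the cluster of 57 basal cells described below.

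Marginal cells fell into 3 clusters, in which Cldn9 was at 279, 363 and 929 CPM, Cldn3 at 47.5, 76.8 and 209 CPM and Cldn7 at 35.3, 31.1 and 128 CPM. The cluster with the highest values (35 cells) had a median mitochondrial share of 10.6%, against 27.7% and 31.8% in the others (57 and 45 cells). That cluster also had the spindle/root markers Anxa1 at 1049 CPM, against 325 and 87.2, and Slc26a4 at 59.7 CPM, against 17.0 and 0. Kcnj16 and Epyc, also spindle/root markers, were not highest in it. The marginal marker Kcne1 was at 2417 CPM, against 842 and 1202. The parts of RNA quality and of spindle/root RNA in these differences were not tested.

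Cldn3, Cldn7, Cldn8 and Cldn4 were higher in marginal cells at lower levels. Cldn3, a sealing claudin, was at 75.1, 78.6 and 89.3 CPM in marginal cells, against 14.2, 10.8 and 0 in basal cells and at most 1.78 in intermediate cells. Cldn7, which is also found along lateral membranes, was at 27.7, 49.1 and 57.4 CPM in marginal cells and at most 6.17 in basal cells. Cldn8, known from the tight distal nephron, was at 55.3, 35.6 and 29.8 CPM, and Cldn4, its partner there, at 11.9, 22.1 and 40.4 CPM. The 40 Cldn4 UMIs lay in 15 of the 137 marginal cells. Each of these marginal ranges lay above those of basal and intermediate cells. Their log2 fold changes against the mean of the other types were 2.64 for Cldn3, 2.55 for Cldn7, 2.39 for Cldn8 and 3.89 for Cldn4, with the largest adjusted p 2.6e-07 (edgeR). With cells classed by their own markers the value of Cldn4 was 0.55, not called. Cldn4 passed the filter on low counts only through the marginal sums, so its call is not independent of its admission to the test. Counting Cldn4, 5 of the 7 tested members were higher in marginal cells and none lower. Of all tested genes 15.3% were higher and 7.03% lower. The median log2 fold change of the 7 was 2.55, beside 0.21 over all genes. The count of 5 and this median follow in part from which members were tested.

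Of the members that could not be tested, Cldn6, a claudin of embryonic epithelia, had 24 UMIs in 7 of the 137 marginal cells (0, 20.9 and 14.9 CPM, with 17 of the UMIs in 3 cells of capture 2), 1 in intermediate and none in basal cells, where a count of 0 allows up to 2.37 CPM. Cldn10, a pore-forming claudin, had 2 UMIs in the 4 types, in marginal cells of capture 3, of 9 in the cell captures (4 in erythroid and 3 in unnamed cells). Cldn12, which lacks the binding motif that ties most claudins to scaffold proteins, had overlapping values in the 3 layers. It stood at 16.4 ± 10.2 CPM in marginal, 13.0 ± 1.95 in intermediate and 12.7 ± 5.77 in basal cells (n = 3).

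Among the 4 types basal cells were set apart by Cldn11. This is the claudin of the basal cell barrier and of myelin, whose loss in mice lowers the endocochlear potential. It was at 3222, 3485 and 2858 CPM in basal cells (3188 ± 315, n = 3). In marginal cells it was at 253, 345 and 228 CPM, in spindle/root cells at 212 and 42.0 CPM in captures 2 and 3, and in intermediate cells at 26.7, 20.5 and 17.6 CPM. No basal value came near one of the other 3 types. Outside the 4 types Cldn11 was also high. It was at 2634 CPM in 71 unnamed cells with basal and fibrocyte markers. In 41 fibrocyte-like cells it was at 1973 CPM, and in 10 unnamed Anxa1-high cells at 1714 CPM. Against the mean of the other types Cldn11 was higher in basal cells by 5.15 ± 0.14 on the log2 scale (adjusted p = 3.0e-284, edgeR), and against marginal cells alone by 3.63 ± 0.16. Between marginal and basal cells 5 members were higher on the marginal side and 1, Cldn11, on the basal side, beside 13.7% and 16.8% of all genes. Marginal cells in turn exceeded intermediate cells by 3.39 ± 0.20 (adjusted p = 7.9e-63, edgeR). The remaining members pointed the other way in basal cells: Cldn9 (log2 fold change -1.65, adjusted p = 5.9e-10), Cldn3 (-1.36, 0.027) and Cldn7 (-1.94, 0.023) were lower by edgeR. Cldn4, Cldn8 and Cldn14 were not called there, with log2 fold changes of -2.14, -1.18 and -1.17. So 1 of 7 members was higher and 3 lower in basal cells, beside 17.7% and 5.69% of all genes. The calls of Cldn3 and Cldn7 there were lost under 7 and 8 alternatives. Among these were Cldn3 without captures 2 and 3 (log2 fold change -1.09 and -1.14), and Cldn7 without captures 1, 2 and 3 (-1.75, -2.64 and -1.80). With at least 10 cells per sum, which leaves spindle/root cells out of the comparison, Cldn3 fell to -0.23 and Cldn7 to -0.88.

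In intermediate cells all 7 tested members were lower than the mean of the other types, by 3.56 to 4.83 on the log2 scale, and none was higher, where 18.7% of all genes were higher and 9.9% lower. The claudin total was 54.3, 44.6 and 40.3 CPM in captures 1, 2 and 3, against 846, 966 and 936 CPM in marginal cells. The median over the 7 was -4.20, beside 0.22 over all genes. None of the 7 had its highest level in intermediate cells, so the filter on low counts admitted them through other types. The count of 7 and this median therefore follow in part from which members were tested. Cldn12, which the filter dropped, was at 13.0 CPM in intermediate, 16.4 in marginal and 12.7 in basal cells (means). Set against single types, intermediate cells were lower in 6 members against marginal cells, in 4 against basal cells and in 6 against spindle/root cells, beside 17.1%, 17.5% and 8.17% of all genes. Without TMM scaling the median over all genes in intermediate cells moved to -0.22 and the calls from 1354 higher and 717 lower to 603 and 1325, while the same 7 members were still called lower. The call of Cldn4 rested on 2 UMIs in intermediate cells. It was lost without capture 3 (log2 fold change -3.80) and without capture 2. Without capture 2 the spindle/root sum held no Cldn4 UMI, so no fold change is given there.

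**Figure D2:**
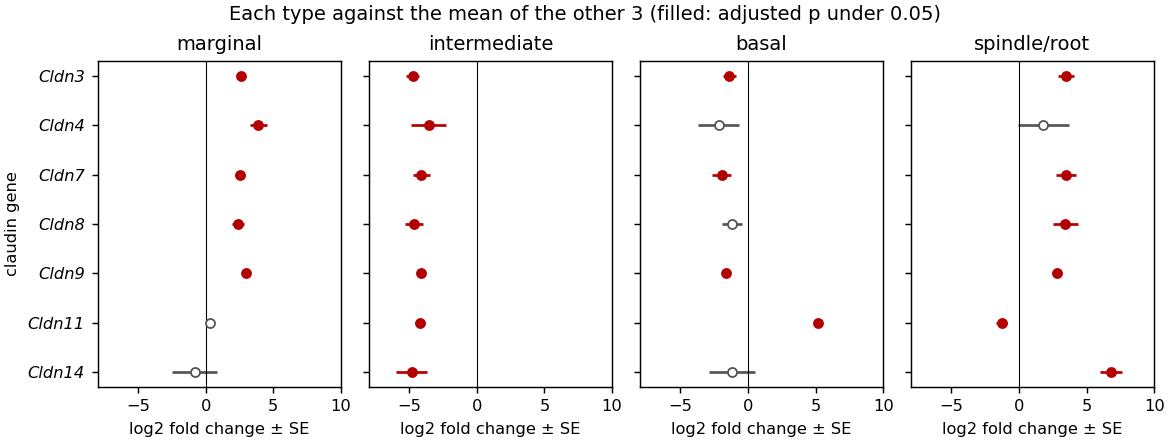
Log2 fold change of the 7 tested members in each cell type against the mean of the other 3 types (points, bars ± SE, edgeR), filled where the adjusted p was under 0.05. Cldn11 is the claudin raised in basal cells, all 7 lie below 0 in intermediate cells, and Cldn14 is raised in spindle/root cells.

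Spindle/root cells were high in Cldn9, Cldn3, Cldn7 and Cldn8, as marginal cells were, and in Cldn14. Cldn14, mutated in a recessive form of human deafness, was at 141 and 378 CPM in captures 2 and 3, from 17 UMIs. In the marginal, basal and intermediate cells of each capture it stood at 6.38 CPM or below. Its log2 fold change against the mean of the others was 6.80 ± 0.79 (adjusted p = 1.0e-15, edgeR). Cldn14 passed the filter on low counts only through these spindle/root sums, so the call is not independent of its admission to the test. Cldn3 at 194 and 83.9 CPM, Cldn7 at 106 and 126, Cldn8 at 53.0 and 126 and Cldn9 were higher too, by 3.48, 3.48, 3.44 and 2.81 on the log2 scale. Cldn4 (17.7 and 0 CPM) was not called. Cldn6 had 2 UMIs, and Cldn12 had none among 80441 UMIs. With Cldn14 counted, 5 of 7 members were higher, beside 6.97% of all genes. The 1 called lower was Cldn11 (log2 fold change -1.27, adjusted p = 0.016, edgeR), beside 10.4% of all genes. The count of 5 follows in part from which members were tested. Capture 3 held 1 Cldn11 UMI in these cells, and without that capture the value was -1.03, not called. Between marginal and spindle/root cells 1 member, Cldn11, was higher on the marginal side and 1, Cldn14, on the other, beside 10.6% and 6.54% of all genes. Against marginal cells directly, Cldn14 was higher in spindle/root cells by 5.70 ± 0.85, and Cldn3, Cldn7 and Cldn8 differed by 0.63 ± 0.49, 0.70 ± 0.63 and 0.78 ± 0.77 on the log2 scale, without a call. These values rest on 15 cells. Without capture 2 fewer members were called higher, with Cldn3 (2.09) and Cldn7 (3.32) among those lost. Fewer were also called higher without capture 3, with Cldn8 (2.71) among those lost. Spindle/root cells then have a single sum, assumed to vary like the other types. Basal cells exceeded spindle/root cells in 1 member, Cldn11, and lay below them in 5, beside 13.1% and 6.52% of all genes. Without TMM scaling the median over all genes moved from -0.59 to -0.08, the calls over all genes from 505 higher and 753 lower to 768 and 342, and the same count of 5 members was higher. The lower call of Cldn11 was lost without TMM scaling (-0.78, adjusted p = 0.17, edgeR) and with DESeq2 (-1.31, adjusted p = 0.058).

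The Cldn11 value in spindle/root cells depended on which cells were counted. A group of 10 cells (2, 3 and 5 in captures 1, 2 and 3), split from the marginal cluster, kept no name because markers of both spindle/root and marginal cells were raised in it. Its cells passed the removal of doublets, with a median of 11540 UMIs beside 11489 in marginal and 5601 in the named spindle/root cells, and whether some are doublets of both was not tested. It had Anxa1 at 8672 CPM, P2rx2 at 490 CPM and Slc26a4 at 390 CPM, all spindle and root cell markers, and no Epyc-high profile like that of the 17 named cells (Epyc 4838 CPM and Anxa1 51.2 CPM there). In these 10 cells Cldn11 was at 1714, Cldn9 at 1538, Cldn3 at 436, Cldn6 at 398, Cldn7 at 390, Cldn4 at 383, Cldn8 at 245 and Cldn14 at 76.5 CPM. With them added to the spindle/root cells, Cldn11 became higher against the mean of the other types (log2 fold change 1.81 in place of -1.27). The number of members called higher was then 8 in place of 5. Since 7 members were tested before, the 8 include a member that the filter on low counts had not admitted. The rise thus follows in part from which members were tested. Over all genes the number called higher rose as well, from 505 of 7243 tested to 864 of 7534.

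Nuclei held the same division. One of their spindle/root clusters (104 nuclei) was Epyc-high, and the other (98 nuclei) Anxa1-high. In the Epyc-high nuclei Cldn9 was at 327 CPM (95% interval 251 to 418), Cldn14 at 145 (96.5 to 210), Cldn11 at 83.0 (47.4 to 135) and Cldn6 at 0. In the Anxa1-high nuclei Cldn9 was at 521 CPM (415 to 645), Cldn11 at 577 (465 to 706), Cldn6 at 155 (100 to 229), Cldn4 at 136 (85.5 to 207) and Cldn14 at 118 (70.9 to 184). Cldn7 was at 104 CPM (63.4 to 160) in the Epyc-high and at 285 CPM (209 to 380) in the Anxa1-high nuclei. The intervals of Cldn11, Cldn7, Cldn6 and Cldn4 did not overlap between the clusters, and those of the other members did. The share of all genes without such overlap was not computed, so the list is a description only. These are exact Poisson intervals that cover counting error only, and with 1 nucleus capture no test was possible.

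**Figure D3:**
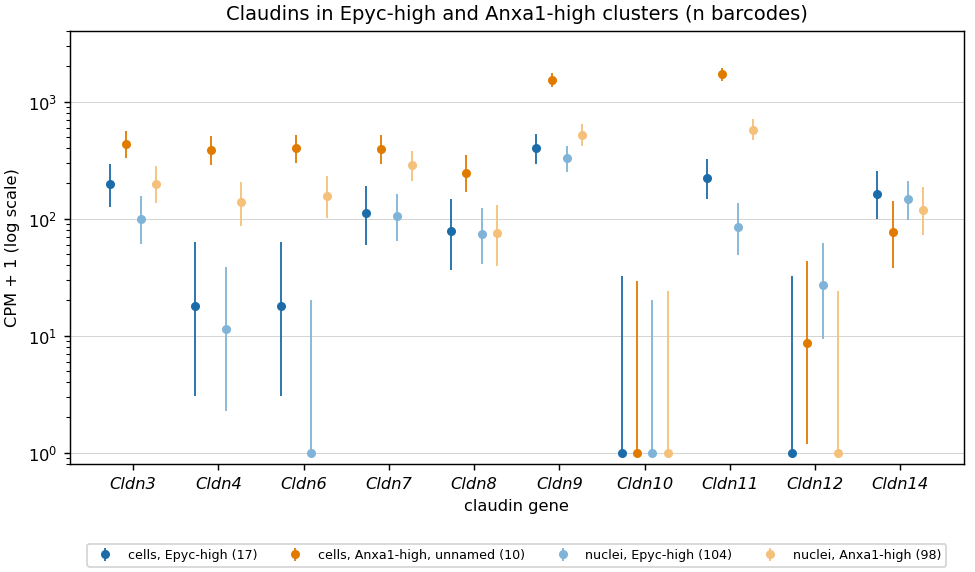
Levels of the claudins (CPM + 1, log axis) in the Epyc-high and Anxa1-high clusters of cells and nuclei (the Anxa1-high cells are the 10 unnamed cells), with exact 95% Poisson intervals. Cldn11, Cldn7, Cldn4 and Cldn6 stand higher in the Anxa1-high groups of both preparations without overlap of their intervals, and in cells Cldn9, Cldn3 and Cldn8 do so too. The share of all genes without such overlap was not computed. Whether some of the 10 cells are doublets was not tested. Cldn14 is present in all 4 groups.

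Over all 4 types the nuclei gave the same leading claudins. In marginal nuclei Cldn9 was at 349 CPM (331 to 367), Cldn11 at 198 (184 to 212), Cldn3 at 120 (109 to 131) and Cldn7 at 102 (92.9 to 113). In basal nuclei Cldn11 was at 802 CPM (750.2 to 856) and Cldn9 at 110.1 (91.6 to 131). In spindle/root nuclei Cldn9 was at 415 CPM (351 to 488), Cldn11 at 308 (253 to 371), Cldn7 at 186 (144 to 237), Cldn3 at 144 (107 to 189) and Cldn14 at 133 (97.5 to 177). Intermediate nuclei had Cldn11 at 53.0 CPM (44.4 to 62.9), Cldn9 at 47.0 (38.9 to 56.3) and no other member above 13.7. Cldn14 was at 6.21 CPM or below in the other 3 types, and Cldn10 had 18 UMIs in marginal nuclei (4.39 CPM, 2.60 to 6.94). Levels in cells and nuclei were not compared by a test, since the preparations differ and the nuclei have no replicate.

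Signal of one layer in another was set beside the level of that layer's markers. In basal cells Cldn9 was at 8.61% of its marginal level, beside 16.4% of the summed marginal markers and 5.82% of the median marker, and in basal nuclei at 31.6%, beside 30.6% and 27.4%. In intermediate nuclei Cldn9 was at 13.5% of its marginal level, beside 16.3% of the markers. Cldn11 in marginal cells was at 8.96% of its basal level, beside 6.23% of the summed basal markers, and in marginal nuclei at 24.7%, beside 5.82% (single markers 1.38% to 44.1%). In erythroid and B cells, which build no tight junctions, Cldn11 was at 5.49 and 6.39 CPM in the whole cell captures and at 29.8 and 63.2 CPM in nuclei. The 53.0 CPM of intermediate nuclei lay within the interval of B cell nuclei (41.7 to 92.0). How much free RNA adds to each level was not tested. Basal cells split into a pair of clusters: in 57 cells Cldn11 was at 2295 CPM, Cldn9 at 57.6 and the marginal marker Kcne1 at 170 CPM, and in 38 cells Cldn11 was at 4792, Kcne1 at 20.0 and Cldn9 at 0 (a limit of 7.4 CPM).

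As a share of all claudin UMIs, Cldn9 gave 48.6%, 40.4% and 45.5% in marginal cells of captures 1, 2 and 3 and 42.5% in marginal nuclei, with Cldn11 next at 29.9%, 35.7%, 24.3% and 24.1%. In basal cells Cldn11 gave 97.1%, 98.0% and 98.2%, and in basal nuclei 80.8%. In spindle/root cells of captures 2 and 3 Cldn9 gave 35.2% and 36.4% and Cldn14 11.3% and 27.3%, and in nuclei these were 27.7% and 8.87%. In the low total of intermediate cells Cldn11 gave 49.2%, 46.0% and 43.7% and Cldn12 27.9%, 25.4% and 31.1%. Claudins in all came to 3356 CPM in basal, 1263 in spindle/root, 937 in marginal and 44.6 in intermediate cells, and in nuclei to 993, 1497, 821 and 140.1 CPM.

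**Figure D4:**
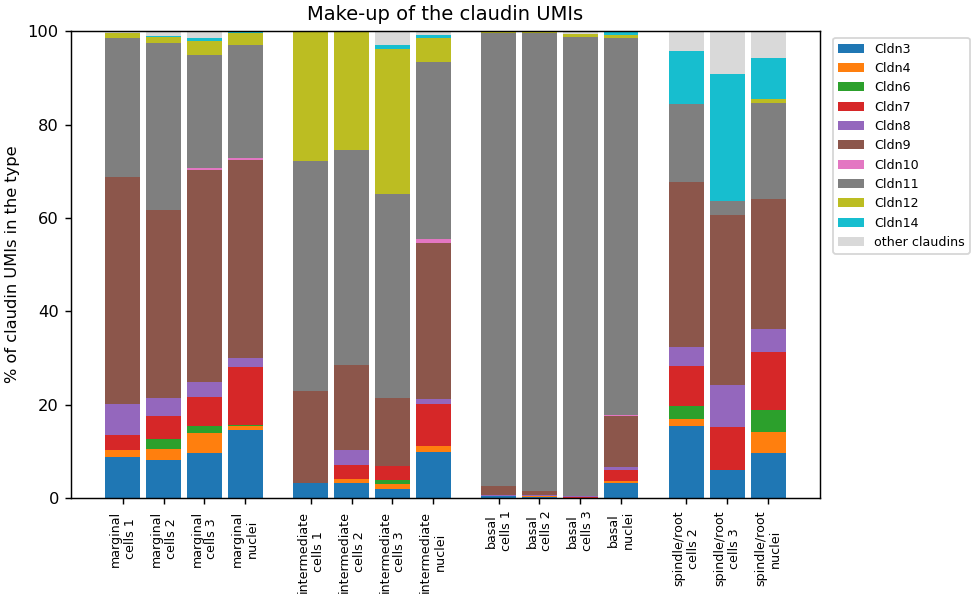
Share of all claudin UMIs (percent) that each claudin gives in the 4 SV cell types, per whole cell capture and in nuclei. Cldn11 fills 97.1% to 98.2% of the basal bars of the cell captures, and marginal bars are led by Cldn9 at 40.4% to 48.6%.

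Per barcode, 94.2% of 137 marginal cells (95% interval 88.8 to 97.4) held a Cldn9 UMI, against 16.8% of basal, 4.41% of intermediate and 3.00% of erythroid cells, at median depths of 11489, 12021, 6178 and 10194 UMIs. A Cldn11 UMI was in 98.9% of 95 basal cells (94.3 to 100), in 77.4% of marginal cells and in 6 of 100 erythroid cells. With every cell thinned to 1000 UMIs the shares fell to 32.8% for Cldn9 in marginal cells, 85.3% for Cldn11 in basal cells and 26.3% for Cldn11 in marginal cells. In nuclei Cldn9 was found in 34.6% of marginal and Cldn11 in 65.3% of basal nuclei, against 8.96% and 14.0% of erythroid nuclei. Erythroid nuclei had a median of 5274.5 UMIs, beside 1497 over all nuclei kept, so these shares are not at like depth. The shares rest on exact binomial intervals. After thinning, 16.1% of marginal cells and 6.32% of basal cells held UMIs of 2 or more members.

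Among the other claudins, Cldn23 had at least 10 UMIs in the 4 types. It was at 53.0 and 83.9 CPM in spindle/root cells of captures 2 and 3 from 5 UMIs, at 6.82 ± 5.92 CPM in marginal cells (n = 3), and at 76.2 CPM in spindle/root nuclei. It was called higher in spindle/root cells (log2 fold change 4.27, adjusted p = 0.0024, edgeR). Like Cldn14, it passed the filter on low counts only through the spindle/root sums. Outside the 4 SV types, the fibrocyte-like cells (41 cells) had Cldn11 at 1973 CPM, with 37 of 41 cells holding a UMI. Ccl11 and Igf2 led that cluster, Coch and Otos, which mark ligament fibrocytes, stood at 33.9 and 29.6 CPM, and the 9 basal markers together stood at 218% of the basal level there, with a median marker at 31.5%, 1 of them at 12108% and 2 at 0. In the 24 fibrocyte-like nuclei Cldn11 was at 199 CPM (95.6 to 367), with Coch at 3548 and Otos at 32866 CPM. The cells and nuclei of this name thus differ in these markers, so their Cldn11 levels cannot be read as those of a single cell type. A further 71 cells (3, 29 and 39 in captures 1, 2 and 3) had all 9 basal markers raised and fibrocyte markers as high (Otos 7195 CPM, Coch 881 CPM), and so stayed outside both groups. Cldn11 was at 2634 CPM (2472 to 2804) and Cldn9 at 13.4 CPM (4.35 to 31.2) in them.

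The remaining genes of the junction followed the layers only in part. Of 27 listed tight junction genes other than claudins, 20 were tested. Of these Inadl, Jam2 and Tjp1 had no UMI in spindle/root cells, so that medians are given also without them. In marginal cells 13 were higher and none lower, beside 15.3% and 7.03% of all genes, with a median log2 fold change of 1.73 (1.46 over the other 17), against 0.21 over all genes. Among genes with UMIs in all 4 types the largest changes were in Crb3, a polarity protein (3.53, 67.5 ± 6.98 CPM), and F11r, the adhesion molecule JAM-A (3.09, 109 ± 19.0 CPM). Inadl, a scaffold protein of the Crumbs complex, was called higher at 20.7 ± 2.26 CPM, against 12.95 ± 9.47 CPM in basal cells and 6.20 ± 4.56 CPM in intermediate cells, with no fold change given. Against basal cells alone it was not called (log2 difference 0.73, adjusted p = 0.30, edgeR). Its count of 0 in spindle/root cells allows up to 37.3 CPM, above the marginal level. Over the 17 genes 12 were higher in marginal cells and none lower. In intermediate cells 9 were lower and 1 higher, beside 9.9% and 18.7% of all genes, with a median of -1.11 (-2.62 over the 17), against 0.22 over all genes. Ildr1, a tricellular junction protein (-4.65), Cxadr, an adhesion receptor (-4.50), and Ocln, the strand protein occludin (-4.32), were the lowest. Jam2 was higher there, at 169 ± 13.7 CPM. Without capture 2 the number lower was 5.

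In basal cells 5 of the 20 were higher and 5 lower, beside 17.7% and 5.69% of all genes, with a median of 0.42 (0.08 over the 17). Over the 17 genes 3 were higher and 5 lower there. Tjp1, the scaffold protein ZO-1, exceeded its marginal level by 2.85 ± 0.21 on the log2 scale (adjusted p = 1.6e-39, edgeR). Crb3 (0.51 CPM) and Cxadr (0.51 CPM) were lower than the mean of the other types, by 4.49 and 3.49. The number lower in basal cells was 3, 1 and 3 without captures 1, 2 and 3. In spindle/root cells 5 were higher, Cxadr by 5.43, and 3 were lower, beside 6.97% and 10.4% of all genes, with a median of 0.07 (0.17 over the 17). Without capture 2 the number higher there was 2. Jam2 and Tjp1 had no UMI in spindle/root cells of captures 2 and 3, where a count of 0 allows up to 37.3 CPM.

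The genes whose pattern over the 11 sums was most like a claudin were found by Pearson's r of log2(CPM + 1), given as a description. Sums of a capture share a suspension, and depths ranged widely, so that sparse genes rank by their zeros as well. Most like Cldn9 were Pak4 (r = 0.97), Etfa (0.97) and Pla2g12a (0.95), and most like Cldn3 were Pak4 (0.97), Sobp (0.97) and Lect1 (0.96). For Cldn11 they were Ablim1 (0.99), Mprip (0.96) and Tns3 (0.96). Cldn7 was followed by Hs3st6, Cyp39a1 and Sel1l3 (0.95 to 0.96), Cldn8 by Sorl1, Il17re and Rab27b (0.96 to 0.97) and Cldn12 by Lrrc47, Smcr8 and Ctr9 (0.98 to 0.99). By Spearman's rho 3 of these 18 genes remained among the 3 most like. Among the members themselves Cldn3 and Cldn9 were closest (r = 0.99), and Cldn11 was near unrelated to Cldn3 (0.09) and Cldn7 (-0.01).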

How the data were processed

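Single cells and nuclei of P30 SV were measured with droplet 3′ RNA sequencing. The deposited files hold raw UMI counts per gene and barcode, which the authors made with Cell Ranger 2.0.0 against mm10, as the submitters' processing notes give it; no value column lacked a sample. Barcodes under 200 genes were dropped, and doublets were removed at 0.8% per 1000 barcodes (Scanpy 1.11.5). Cells and nuclei were clustered separately with Seurat 5.3.0 (2000 variable genes, none of them a claudin or listed tight junction gene, resolution 0.8). A cluster was named where at least 3 of its class markers were raised and the next class scored under 0.67 of it. UMI counts were summed per capture and type (at least 5 cells) and fitted with edgeR 4.0.16 (TMM, filterByExpr, robust quasi-likelihood, capture as a block). Genes are called at an adjusted p under 0.05.

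Types of a capture come from one suspension, and over 6628 genes their deviations correlated between -0.01 and 0.19 in 15 pairs, so the capture was kept as a block. The 11 sums left 5 residual degrees of freedom. The common biological coefficient of variation was 9.03%, and the estimated spread was shared fully across genes, so that adjusted p-values are very small and measure the spread among these captures only. On simulated counts of 6670 genes (marginal cells against the others) 76 of 101 genes with a 4-fold change and 15 of 89 with a 2-fold change were called by edgeR, with 1 false call. These counts were drawn with a wider spread than the 9.03% estimated for the real sums. The recovery and the false call therefore do not describe the fit used. Nuclei, shares of barcodes and the share of each claudin were not tested. Intervals are exact, at the 95% level, and cover counting error only; a count of 0 is given the limit of 3 counts. The nuclei were mapped to another gene list (48816 genes) than the cells (27998).

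The genes named are the 10 members, other claudins with at least 10 UMIs in the 4 types, the 3 genes most like each member with at least 50 UMIs, at most 3 called tight junction genes per type, and markers. The claudins and the lists were chosen with earlier results of these data known. The limit for naming and the rule that classes cells by their own markers were set after the data were seen, the latter after several versions were compared. Fold changes against a group without UMIs are not given. Of the listed tight junction genes, Patj is listed as Inadl in these files. The alternatives were DESeq2 1.42.0, no TMM scaling, no filter, no block, each capture left out, other resolutions, no removal of doublets, junction genes among the variable genes, at least 10 cells per sum and classing by own markers (at least 3 marker UMIs). Adding the unnamed cells, totals without mitochondrial genes and the junction list under these alternatives were chosen after the data were seen.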

Additional observations from a re-analysis of the deposited data

Results flagged for a closer look

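In captures 2 and 3 of whole cells, which hold at least 5 spindle/root cells each, the order of a pair of types was opposite to that in nuclei in 4 instances. No difference was tested, since nuclei have 1 library. Of the 4, 3 rest on counts of 0 or 1 UMI in spindle/root cells of both captures. The Cldn11 instance rests on 1 UMI in spindle/root cells of capture 3. Cldn11 was higher in marginal than in spindle/root cells in these captures (345 and 228 against 212 and 42.0 CPM) and lower in nuclei (198 against 308 CPM, a log2 ratio of CPM + 1 of -0.64). In capture 1, with 2 spindle/root cells, it was lower in marginal cells (253 against 354 CPM). Cldn4 was at 22.1 and 40.4 CPM in marginal cells, against 17.7 and 0 CPM from 1 UMI in spindle/root cells, and in nuclei at 6.83 against 67.8 CPM (log2 ratio -3.13). In capture 1 it was at 11.9 against 27.2 CPM. Cldn12 had no UMI in spindle/root cells of captures 2 and 3, which allows up to 37.3 CPM, more than the 13.0 CPM of intermediate and 12.7 CPM of basal cells, so that the cells give no order. In nuclei it was at 14.1 CPM in spindle/root, 7.23 in intermediate and 7.99 in basal nuclei, with log2 ratios against spindle/root of -0.88 and -0.75. In nuclei the spindle/root group holds the Anxa1-high cluster of 98 nuclei, with Cldn4 at 136 CPM, while the 10 Anxa1-high cells stayed outside the group in the cell captures, with Cldn4 at 383 CPM.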

How the results depend on the processing

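The 22 called log2 fold changes of members were recomputed under up to 14 alternatives, giving 293 values, of which 263 kept direction and call, 26 kept the direction without a call and 4 reversed. The reversed value is that of Cldn11 in spindle/root cells, at 2.13 with a resolution of 0.4, 2.17 without removal of doublets, 2.05 with cells classed by their own markers and 1.81 with the unnamed Anxa1-high cells added. With the first, second and last of these alternatives 8 members were called higher in spindle/root cells in place of 5, and leaving out captures gave 2 to 5. Over all genes 807 of 7443, 876 of 8427 and 864 of 7534 were called higher there with the first, second and last alternatives, in place of 505 of 7243. The 8 members include a member that the filter on low counts had not admitted before, since 7 were tested in the main fit. The cause of these changes was not tested. Classing by own markers left 3 members higher in marginal cells in place of 5, with Cldn4 and Cldn8 lost. At least 10 cells per sum left 3 pairs of types and 14 called differences in place of 30, and no value for spindle/root cells. In nuclei Cldn9 in marginal nuclei was at 484 CPM with own markers and 373 CPM with mitochondrial genes left out of totals, and Cldn11 in basal nuclei at 553 and 941 CPM, and at 740.3 CPM without removal of doublets.

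Of the tight junction list, 13 genes were higher in marginal cells, and 6 with cells classed by own markers. In place of none, 2 were lower at a resolution of 0.4 and without removal of doublets, 3 with at least 10 cells per sum, and 1 with own markers and with the Anxa1-high cells added. In intermediate cells 2 were higher without the filter in place of 1, and 15, 16 and 15 were lower at a resolution of 0.4, without removal of doublets and with the Anxa1-high cells, in place of 9; leaving out captures gave 5 to 8. In basal cells 1 and 2 were lower with at least 10 cells per sum and with own markers, in place of 5, and 1 to 3 when captures were left out. In spindle/root cells 9 were higher in each of those 3 alternatives, in place of 5, and 2 to 5 when captures were left out. The number of all genes called higher in spindle/root cells also rose in those 3 alternatives, as given above. Thinned shares were 32.8% (Cldn9, marginal cells), 85.3% (Cldn11, basal cells), 13.0% and 31.1% (the same in nuclei). By Spearman's rho 3 of 18 like genes remained.

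Over all genes, intermediate cells had 1354 called higher and 717 called lower, and 603 and 1325 without TMM scaling or 850 and 848 with DESeq2. Spindle/root cells had 505 and 753, and 768 and 342 without TMM scaling or 505 and 323 with DESeq2. Without the replicate block the counts of members called higher were unchanged, at 5, 0, 1 and 5 in marginal, intermediate, basal and spindle/root cells, and the called differences between pairs were 30. The block changed no call of a member. No paired analysis was possible because nuclei, with a single capture, share no suspension with the cells. Depth limits spindle/root cells most, where 15 cells and 80441 UMIs stand behind the fit, and Cldn6, Cldn10 and Cldn12, which could not be tested.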

Other observations

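Claudins outside the SV epithelium were found in blood cells. These were chosen after their values were seen. Cldn13, a rodent claudin, had 218 UMIs in 100 erythroid cells (199 CPM, 95% interval 174 to 228), 206 of them in capture 3, and 181 UMIs in 480 erythroid nuclei (68.3 CPM, 58.7 to 79.0). In the 4 SV types it had 3 UMIs in cells and 4 in nuclei. Cldn15 had 16 UMIs in 71 neutrophil nuclei (92.3 CPM, 52.8 to 150) and 1 UMI in the nuclei of the 4 SV types.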
